A study of Mus musculus with 6 samples.

Results

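White adipose tissue releases signalling proteins as well as fatty acids, and the genes of 10 such adipokines and adipocyte-secreted factors were described in WATs of control and Ntsr2 AKO mice. The members were chosen by name (Adipoq, Lep, Retn, Cfd, Rbp4, Apln, Nampt, Nrg4, Sfrp5 and Metrnl), and all 10 were found among the 21456 genes of the table and passed the filter on low values (a mean normalized count of at least 10), which 16157 genes passed. Leptin, encoded by Lep, reports fat stores to the hypothalamus and lowers food intake, and adiponectin, encoded by Adipoq, raises insulin sensitivity. The other members include a complement protease, a retinol carrier, an enzyme of NAD synthesis that is also secreted, and local ligands and inhibitors. The series asked how Ntsr2, a receptor for the peptide neurotensin, acts in white adipocytes on food intake.

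WATs of chow-fed mice were analysed by RNA-seq in 6 samples, each taken here as 1 mouse. The 3 control mice were Ntsr2 flox/flox without Cre, and the 3 Ntsr2 AKO mice were Adipoq-cre::Ntsr2 flox/flox. In Ntsr2 AKO mice the regulatory sequence of Adipoq drives Cre in adipocytes, white and brown, and LoxP sites on both sides of the Ntsr2 exons allow the gene to be removed there, while the other cells of the tissue keep it. Thus all 6 mice carry the floxed alleles, and only the Ntsr2 AKO mice carry the Cre. The labels number the mice 3 to 5 in each group, and the depot, age and sex of these mice are not given in the sources used here. The values are normalized counts, that is, reads per gene scaled by 1 factor in each mouse, and between 54085088 and 66098226 reads were recovered per mouse. Ntsr2 was at 83.8, 64.0 and 152 in the control mice and at 3.10, 8.29 and 0 in the Ntsr2 AKO mice. The targeted gene was thus lower in each Ntsr2 AKO mouse than in the lowest control (log2 fold change -4.81 ± 0.91 (SE), limma adjusted p = 0.499, DESeq2 adjusted p = 0.000111).

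The marker genes of adipocytes were high in all 6 mice, in which their 10 summed values ranged from 1182400 to 1652812 in control and from 1388340 to 1694503 in Ntsr2 AKO mice. The 5 skeletal muscle markers summed to 2203121 in control 5, 152824 in Ntsr2 AKO 5 and 69048 in Ntsr2 AKO 4, but to between 371 and 1425 in the other mice. Control 3 held the most lymphocyte markers (879 over 5 genes, against 154 to 234 in the other mice) and epithelial markers (256 over 5 genes, against 34 to 45). Of the 5 mesothelial markers, Msln, Upk3b and Wt1 were between 0 and 20.1, Lrrn4 between 52.8 and 120 and Krt19 between 32.1 and 413. Of the 5 brown adipocyte markers, Ucp1, Elovl3 and Dio2 were between 0 and 180, and Cidea and Cox8b between 1281 and 6410, and the 4 tested ones had a positive log2 fold change (median 0.53). Of the 52 marker genes tested, in 11 lists, 4 passed an unadjusted p of 0.05 (beside 8.35% of all tested genes) and 0 passed the adjusted one (limma). These were Cidea and the adipocyte marker Acvr1c, which were higher in Ntsr2 AKO mice, and Krt19 and the lymphocyte marker Cd2, which were lower. In whole tissue, fewer cells of a type and less RNA per cell cannot be told apart.

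Per kilobase of exons, the members spanned a very wide range of levels. Cfd, which encodes adipsin (complement factor D), had the highest level, with a median over the 6 mice of 1380880 normalized counts per kb. It was followed by Adipoq at 128674, Retn at 46426 and Rbp4 at 15496, and the ranges over mice of these first 4 genes did not overlap. Lep (3945) and Nampt (2546) came next, both with ranges above that of Metrnl, and the range of Lep, from 1788 to 20191, reached above that of Rbp4 and below that of Nampt. Metrnl (1079), Nrg4 (575), Sfrp5 (229) and Apln (63.7) were the lowest, and each range overlapped that of the next gene in the order. With the longest annotated transcript as the length, Nrg4 (1668) stood above Metrnl (1222) and the order of the other 8 genes did not change.

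**Figure D1:**
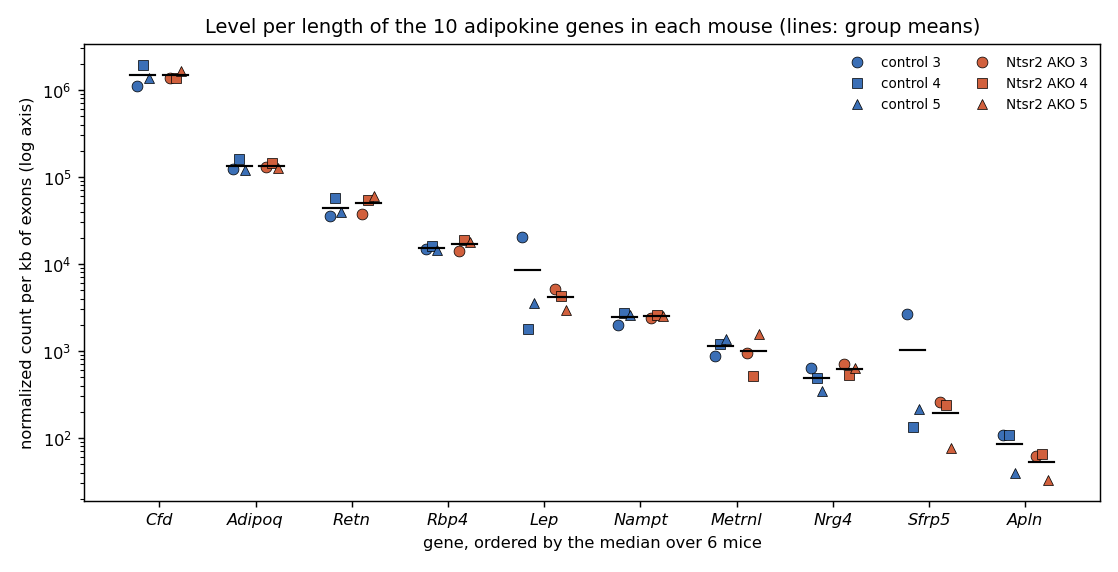
Level of each member in each mouse, as normalized count per kilobase of exons on a log axis, with control mice in blue, Ntsr2 AKO mice in orange and group means as lines. The medians fall from 1380880 for Cfd to 63.7 for Apln, and control 3 stands above all other mice for Lep and Sfrp5.

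Together the 10 genes took between 2.41% and 3.46% of the reads of a mouse, most of them from Cfd, with 1.83% to 2.88%. Cfd ranked between 2 and 5 among all genes of the table in each mouse by normalized count, and Adipoq between 21 and 31. By contrast, Sfrp5 ranked 1893 in control 3 and between 9390 and 11985 in the other 5 mice. The lowest number of reads behind a member was 102 for Apln and 144 for Sfrp5, and it was 778 or more for the other 8 genes.

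No difference between the genotypes was detected for any of the members. Of the 10 genes, 0 passed an adjusted p of 0.05 and 0 passed an unadjusted p of 0.05 in limma, and edgeR and DESeq2 on the recovered reads also gave 0 and 0. Over all tested genes limma called 0.00619% at the adjusted and 8.35% at the unadjusted threshold, and DESeq2 called 1.36% at the adjusted one. The groups overlapped for each of the 10 genes, whereas they did not overlap for 15.0% of all tested genes. The median log2 fold change of the members (Ntsr2 AKO over control) was 0.02, beside -0.01 over all tested genes. How large a difference could have been missed depended on the gene, since the 95% intervals ran from 0.87-fold to 1.42-fold for Rbp4 but from 0.06-fold to 2.52-fold for Sfrp5.

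**Figure D2:**
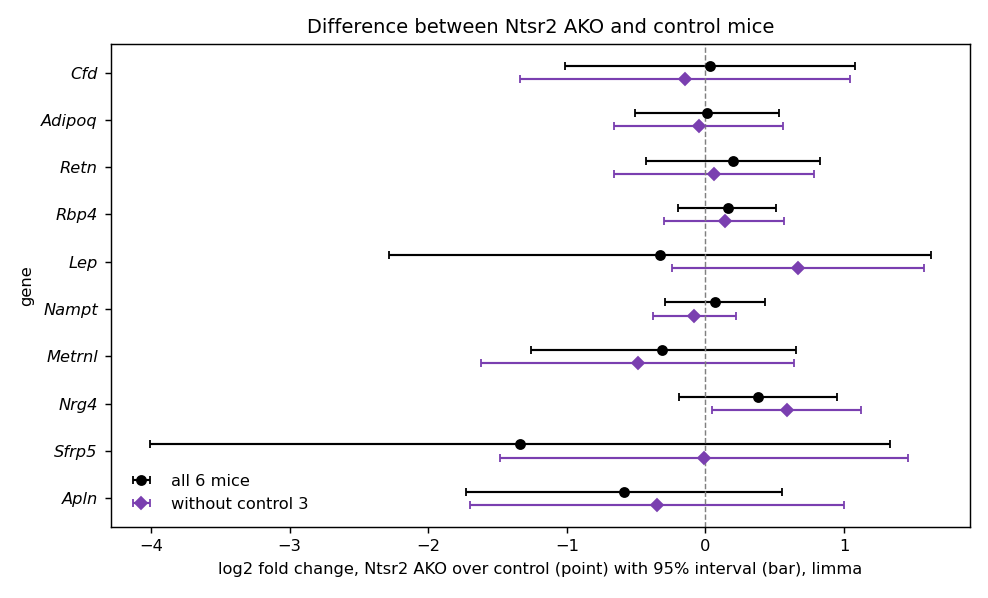
Log2 fold change of each member between Ntsr2 AKO and control mice with its 95% interval (limma), for all 6 mice (black) and without control 3 (purple). All intervals over 6 mice include 0, and those of Lep and Sfrp5 are the widest and shorten without control 3.

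Among the hormones of energy balance, Lep varied the most. Lep lies on chromosome 6 from 29060220 to 29073877 on the plus strand (GRCm38) and has 3 exons. The 250 bases before its RefSeq start site, and those of Sfrp5 and Adipoq, are shown because Lep and Sfrp5 had the widest spread between mice and Adipoq, which also drives the Cre, had one of the narrowest. Capitals mark matches, on either strand, to 5 motifs: the palindrome TTGCGCAA that C/EBP factors bind, the CCAAT box, the TATAA of a TATA box, the GC box GGGCGG and, as an E box, CACGTG.
Lep, chr6:29059971-29060220, plus strand, GRCm38.p6: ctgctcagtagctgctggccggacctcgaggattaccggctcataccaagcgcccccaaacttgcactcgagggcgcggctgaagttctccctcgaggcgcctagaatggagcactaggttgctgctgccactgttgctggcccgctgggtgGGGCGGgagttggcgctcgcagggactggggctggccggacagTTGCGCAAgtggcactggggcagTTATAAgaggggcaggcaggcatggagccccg
Sfrp5, chr19:42202253-42202502, minus strand, GRCm38.p6: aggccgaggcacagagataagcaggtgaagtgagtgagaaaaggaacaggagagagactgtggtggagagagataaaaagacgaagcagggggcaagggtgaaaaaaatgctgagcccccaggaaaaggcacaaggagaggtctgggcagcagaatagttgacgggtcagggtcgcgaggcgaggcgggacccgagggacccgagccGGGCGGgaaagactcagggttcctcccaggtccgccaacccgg
Adipoq, chr16:23146286-23146535, plus strand, GRCm38.p6: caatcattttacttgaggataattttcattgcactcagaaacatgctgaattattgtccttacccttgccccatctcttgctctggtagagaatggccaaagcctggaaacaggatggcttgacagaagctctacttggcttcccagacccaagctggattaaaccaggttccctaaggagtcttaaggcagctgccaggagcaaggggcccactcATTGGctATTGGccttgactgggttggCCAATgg
The Lep window holds TTGCGCAA at positions -55 to -48 from the start site, a motif found in 0.164% of 32851 RefSeq windows of the same length, and a TATA box at -31 to -27, found in 22.8%, which overlaps a match on the other strand at -32 to -28. It also holds a GC box at -98 to -93, as the Sfrp5 window does at -43 to -38, a motif of 32.7% of windows. The Adipoq window holds the CCAAT box 3 times, at -7 on the given strand and at -34 and -27 on the other, and 33.8% of windows hold at least 1. The E box, found in 6.02% of windows, was in no window of a member. These matches describe letters only and do not show that a factor binds. The Lep window has a GC content of 65.6%, that of Sfrp5 59.6% and that of Adipoq 48.8%, beside a median of 52.4% over all windows.

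The normalized counts of Lep were 67722, 5997 and 12010 in control mice 3, 4 and 5, and 17222, 14450 and 9895 in Ntsr2 AKO mice 3, 4 and 5. Control 3 was 3.93-fold above the next mouse, control 4 was the lowest, and the Ntsr2 AKO mice lay between them. The means were 28577 ± 34034 (SD, n = 3) in control and 13856 ± 3700 in Ntsr2 AKO mice, and the log2 fold change was -0.33 (95% interval -2.28 to 1.63, limma adjusted p = 0.929). The direction rested on control 3, since without it the log2 fold change was 0.67 (adjusted p = 0.648). edgeR and DESeq2, which compare means rather than log values, gave -1.03 and -1.04 with all mice (adjusted p = 0.724 and 0.780). Control 3 also had the highest sums of lymphocyte, epithelial and endothelial markers. It had the lowest sums of stromal progenitor, macrophage, brown adipocyte and erythroid markers. It held neither extreme of the adipocyte marker sum, of which Fabp4 was the largest part. Of the single adipocyte markers, control 3 was the highest mouse for Plin1 (96786), Plin4 (189500), Pparg (14326) and Pnpla2 (179587). For Fabp4, Cidec, Cebpa, Lipe, Slc2a4 and Acvr1c it held neither extreme. The part of these cell types in the Lep value was not tested.

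Adipoq, on chromosome 16 from 23146536 to 23158028, was at 169166, 220865 and 163803 in control mice and at 180246, 197720 and 175152 in Ntsr2 AKO mice. The highest and the lowest value were both in control mice and differed by 1.35-fold. The means were 184611 ± 31511 and 184373 ± 11836 (SD, n = 3 each), with a log2 fold change of 0.01 (-0.51 to 0.53, limma adjusted p = 0.993). After quantile normalization the log2 fold change was 0.25 with no overlap between the groups, and among the scalings and omissions run this was also seen without control 4. Thus the gene whose regulatory sequence drives the Cre had a level in Ntsr2 AKO mice that lay within the spread of the controls.

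Leptin and adiponectin are often read as a ratio, which within a mouse does not depend on its size factor. There were 40.0, 2.72 and 7.33 Lep counts for every 100 Adipoq counts in control mice, and 9.55, 7.31 and 5.65 in Ntsr2 AKO mice. Control mice thus held both the highest and the lowest ratio. The log2 ratio was -3.43 ± 1.96 in control and -3.77 ± 0.38 in Ntsr2 AKO mice (SD, n = 3 each), a difference of -0.34 (two-sided exact permutation test over 20 assignments, p = 0.80, where the smallest possible p is 0.10). Without control 3 the difference was 0.72.

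Retn encodes resistin, which in mice is made by adipocytes and opposes insulin action. Its normalized counts were 55823, 91018 and 61954 in control mice and 59801, 84659 and 94702 in Ntsr2 AKO mice. Each group held low and high mice, and the groups overlapped across most of their range. Between the groups the log2 fold change was 0.20 (-0.43 to 0.83, limma adjusted p = 0.844).

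Cfd, Rbp4 and Nampt encode secreted proteins with enzymatic or carrier roles. Cfd encodes the serine protease that cleaves factor B in the alternative complement pathway, and it was at 1022572, 1796905 and 1252165 in control mice and at 1276500, 1269842 and 1520762 in Ntsr2 AKO mice. Control mice held the highest and the lowest value, and the means of 1357214 ± 397712 and 1355701 ± 142986 (SD, n = 3 each) were nearly equal. This gave a log2 fold change of 0.03 (-1.01 to 1.08, limma adjusted p = 0.987).

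Rbp4 encodes the carrier of retinol in blood. It was at 19817, 21804 and 19380 in control mice and at 19098, 25467 and 23823 in Ntsr2 AKO mice. Ntsr2 AKO 3 was the lowest of the 6 mice and the other 2 Ntsr2 AKO mice were the highest. The log2 fold change was 0.16 (-0.20 to 0.51, limma adjusted p = 0.787), and it ranged from 0.07 without Ntsr2 AKO 4 to 0.28 without Ntsr2 AKO 3, where the groups did not overlap.

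Nampt encodes the rate-limiting enzyme of NAD salvage, which is also released by adipocytes and was once named visfatin. Its values were 9939, 13862 and 12928 in control mice and 12096, 13167 and 12807 in Ntsr2 AKO mice. Control mice held both extremes, and the Ntsr2 AKO mice lay within 1.09-fold of each other. Between the groups the difference was 0.07 on the log2 scale (-0.29 to 0.43, limma adjusted p = 0.922).

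Among the local ligands and inhibitors, Sfrp5 had the widest spread of all members. Sfrp5 encodes a secreted frizzled-related protein that binds Wnt5a and keeps it from its receptors, and it lies on chromosome 19 from 42197971 to 42202252 on the minus strand. It was at 5112, 256 and 411 in control mice and at 494, 459 and 146 in Ntsr2 AKO mice. Control 3 was 10.3-fold above the next mouse, and the other 5 mice lay within 3.39-fold of each other. The log2 fold change was -1.34 (-4.01 to 1.33, limma adjusted p = 0.762) and fell to -0.01 without control 3 (adjusted p = 0.996). It was -2.38 in edgeR (adjusted p = 0.636) and -2.39 in DESeq2, which gave the gene no p because of its extreme value. As for Lep, the part of the cell types whose marker sums or single markers were highest or lowest in control 3 was not tested.

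Nrg4 encodes an EGF-like ligand of ErbB4 that adipose tissue sends to the liver. Its values were 3832, 2979 and 2081 in control mice and 4322, 3171 and 3819 in Ntsr2 AKO mice. The lowest 2 mice were controls and the highest was Ntsr2 AKO 3, but control 3 lay above Ntsr2 AKO 4 and 5. The log2 fold change was 0.38 (-0.19 to 0.95, unadjusted p = 0.158, adjusted p = 0.687, limma). Without control 3 the groups did not overlap and the log2 fold change was 0.59 (unadjusted p = 0.0366, adjusted p = 0.581, limma), while without control 5 it was 0.15 (unadjusted p = 0.470) and without Ntsr2 AKO 3 it was 0.28. With a skeletal muscle score as covariate, added after the data were seen, it was 0.45 (limma unadjusted p = 0.0323, adjusted p = 0.574). Control 5, the lowest mouse, held the most muscle transcripts, and their part in the Nrg4 values was not tested. Annotated exons of Nrg4 overlap those of Fbxo22 and Gm15625, and the strand setting of the counting is not given in the sources used here, so part of its reads could belong to these genes.

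Apln encodes apelin, a peptide that acts on blood vessels through its receptor Aplnr. It had the fewest reads of the members, with 338, 339 and 124 normalized counts in control mice and 197, 204 and 103 in Ntsr2 AKO mice. Controls 3 and 4 were above all Ntsr2 AKO mice, but control 5 was below 2 of them. The log2 fold change was -0.59 (-1.73 to 0.55, unadjusted p = 0.262, adjusted p = 0.758, limma), and it ranged from -1.07 without control 5 (unadjusted p = 0.0266, adjusted p = 0.734) to -0.27 without Ntsr2 AKO 5 (unadjusted p = 0.605). Control 5 and Ntsr2 AKO 5, the lowest mice for Apln, also held the most muscle transcripts. Ntsr2 AKO 4 had a muscle marker sum of 69048 and Ntsr2 AKO 3 one of 1425, with Apln at 204 and 197. With the skeletal muscle covariate, added after the data were seen, the log2 fold change was -0.45 (limma adjusted p = 0.707). The part of muscle transcripts in the Apln values was not tested.

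Metrnl encodes meteorin-like, a factor released by fat and muscle. Its values were 1384, 1913 and 2155 in control mice and 1510, 806 and 2480 in Ntsr2 AKO mice. Ntsr2 AKO mice held both the lowest and the highest value, which differed by 3.07-fold. Its log2 fold change was -0.31 (-1.26 to 0.65, limma adjusted p = 0.845) and turned to 0.11 without Ntsr2 AKO 4.

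The spread between mice differed widely among the members. On the log2 scale the SD within a group, pooled over both groups, was 1.78 for Sfrp5, 1.31 for Lep, 0.71 for Apln and 0.62 for Metrnl, while the median over all tested genes was 0.30. A larger SD was found for 4.6% of the tested genes in the case of Sfrp5 and for 7.2% in that of Lep. Retn (0.36), Nrg4 (0.35) and Cfd (0.31) were close to that median. Adipoq (0.18), Nampt (0.18) and Rbp4 (0.17) were below it. Counting error alone would give an SD of 0.108 for Apln, 0.079 for Sfrp5 and at most 0.037 for the other 8 genes, less than the spread seen in each case.

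**Figure D3:**
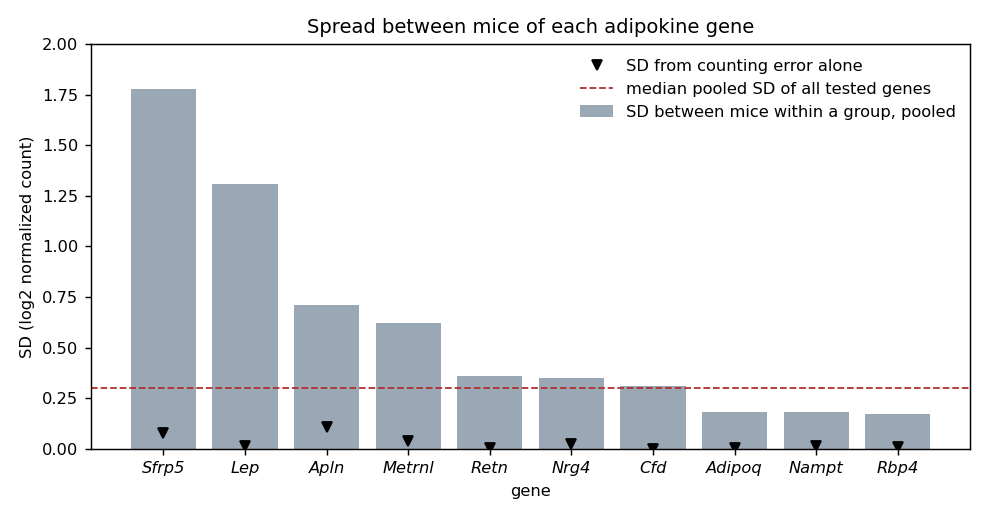
SD of the log2 normalized count between mice within a group, pooled over both groups (bars), with the SD from counting error alone (triangles) and the median of all tested genes (dashed line at 0.30). Sfrp5 and Lep lie far above the line, and Adipoq, Nampt and Rbp4 below it.

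Within the groups, Lep had an SD of 1.80 in control and 0.41 in Ntsr2 AKO mice, and Sfrp5 had one of 2.32 and 0.98. Metrnl and Rbp4 varied more among Ntsr2 AKO mice (0.81 and 0.22) than among control mice (0.33 and 0.09). Differences in spread between groups of 3 mice were not tested. Control 3 stood at least 3-fold above all other mice in 56 of the 16157 tested genes, of which 2 were members, Lep and Sfrp5. The same count was between 16 and 50 for control 4 and the Ntsr2 AKO mice, and 460 for control 5, the mouse with the most muscle transcripts. Control 3 was the lowest mouse for Retn, Cfd and Nampt.

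Likeness of pattern was measured as the root mean square (RMS) difference between the log2 values of a pair of genes, each centred on its mean over the 6 mice, for the 3 members with the largest SD over the 6 mice and for Adipoq. For Sfrp5 the nearest of the tested genes were Adamtsl2 (0.48), which encodes a secreted glycoprotein of the extracellular matrix, Ptchd4 (0.56) and Cacna1e (0.59), which encodes a calcium channel subunit. Adamtsl2 was at 257 in control 3 and between 12.1 and 48.5 in the other mice. For Lep the nearest were Gabrr2 (0.25), a GABA receptor subunit, Lypd6b (0.32) and Bmp3 (0.32), a secreted ligand of the BMP family that was at 2726 in control 3 and between 314 and 1005 in the other mice. All 6 of these genes had their highest value in control 3. This follows from their choice by likeness to Sfrp5 and Lep, which peak in that mouse, and is not a separate result. Sfrp5 and Lep differed by 0.70, which ranked Lep 7 among the tested genes by nearness to Sfrp5 but Sfrp5 only 158 by nearness to Lep.

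For Apln the nearest genes were Scn2b (0.18), a sodium channel subunit, Nfasc (0.20), which encodes the adhesion protein neurofascin, and Cyp4f14 (0.21), a cytochrome P450. Each of these was lowest in control 5 and Ntsr2 AKO 5, as Apln was, which follows from their choice by likeness to Apln. Scn2b was low, between 5.06 and 21.2 normalized counts. For Adipoq they were Nars2 (0.03), a mitochondrial tRNA synthetase, Il10rb (0.04), a cytokine receptor subunit, and Abhd12 (0.05), a lipase. A gene with little spread, such as Adipoq, is near many genes by this measure. Among the members, Nampt (0.14), Rbp4 (0.16) and Cfd (0.18) lay nearest to Adipoq.

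**Figure D4:**
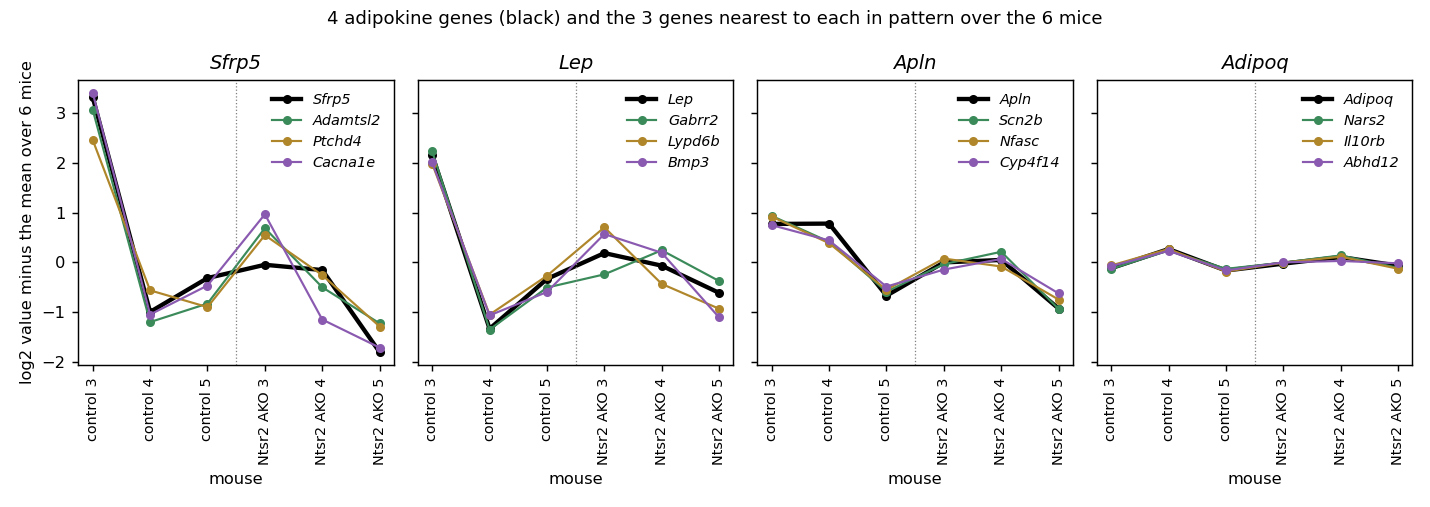
Log2 values minus the mean over 6 mice for Sfrp5, Lep, Apln and Adipoq (black) and the 3 tested genes nearest to each in pattern (colours). The lines join mice to show each profile and carry no order. Sfrp5 and Lep are highest in control 3 and Adipoq is nearly flat, and the nearest genes share these shapes because they were chosen by them.

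The partners of the members in blood and on target cells were examined as a list of 39 receptors, processing enzymes and substrates, of which 34 were tested. At an unadjusted p of 0.05, 1 of these genes was lower and 2 were higher with Ntsr2 depleted (8.35% of all tested genes, 5.27% lower and 3.08% higher), and 0 passed the adjusted threshold in limma, edgeR or DESeq2. The median log2 fold change of the list was -0.02, beside -0.01 over all tested genes. With scaling by the total of recovered reads, that threshold was passed by 0 lower and 2 higher genes. Adipocyte marker scaling left 0 genes at the unadjusted threshold, with log2 fold changes of nearly the same size (0.51 for Nmnat3, 0.57 for Nmrk1 and -0.33 for Cap1).

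The higher genes, Nmnat3 and Nmrk1, encode enzymes of NAD synthesis, the first of which uses the product of Nampt. Nmnat3 was at 614, 723 and 548 in control mice and at 781, 993 and 940 in Ntsr2 AKO mice, all of which lay above every control (log2 fold change 0.53 ± 0.17 (SE), unadjusted p = 0.0184, adjusted p = 0.548, limma). Nmrk1 was at 395, 320 and 370 in control mice and at 410, 621 and 620 in Ntsr2 AKO mice, again without overlap (0.58 ± 0.22, unadjusted p = 0.0338, adjusted p = 0.565). Cap1, which encodes an actin-binding protein described as a resistin receptor, was at 8421, 9274 and 7555 in control mice and at 7466, 6405 and 6350 in Ntsr2 AKO mice. All Ntsr2 AKO mice were below the controls for Cap1 (-0.32 ± 0.13, unadjusted p = 0.0429, adjusted p = 0.590).

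The groups did not overlap for 3 further partners, which are named after their values were seen. Erbb4, the receptor of Nrg4, was at 263, 184 and 283 in control mice and at 337, 295 and 310 in Ntsr2 AKO mice (unadjusted p = 0.132, limma). Aplnr was at 515, 679 and 493 in control mice and at 447, 407 and 491 in Ntsr2 AKO mice (unadjusted p = 0.136). Naprt, listed as Naprt1 and an enzyme of NAD synthesis from nicotinic acid, was at 878, 946 and 737 and at 993, 962 and 975 (unadjusted p = 0.202). In all, 2 of the 34 genes lay below without overlap and 4 above, beside 8.16% and 6.82% of all tested genes.

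The receptors of leptin and adiponectin and the ligand Wnt5a, also named after their values were seen, showed overlapping groups. Lepr, the leptin receptor, was low, at 123, 142 and 90.2 in control mice and 69.2, 98.5 and 172 in Ntsr2 AKO mice (unadjusted p = 0.732, limma). Adipor2, a receptor of adiponectin, was at 58790, 45855 and 32220 in control mice and at 60723, 30435 and 43587 in Ntsr2 AKO mice (unadjusted p = 0.912). The adiponectin receptor Adipor1 had an unadjusted p of 0.220 (limma). Cdh13, listed with them, was at 1555, 1417 and 1779 in control mice and at 1162, 1430 and 930 in Ntsr2 AKO mice. Its log2 fold change was -0.45 (limma unadjusted p = 0.0504, adjusted p = 0.594). Wnt5a, the ligand that Sfrp5 binds, was at 942, 506 and 807 in control mice and at 857, 1533 and 1012 in Ntsr2 AKO mice (unadjusted p = 0.0924). Control 3, the highest mouse for Sfrp5, held neither extreme of Wnt5a.

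Of 10 relatives of the members by family, such as other resistin-like proteins, neuregulins and secreted frizzled-related proteins, 9 were found and 7 tested, and 0 passed an unadjusted p of 0.05 in limma. Their median log2 fold change was 0.02. The groups did not overlap for 1 of them, Retnlg (resistin-like gamma, named after its values were seen), which was at 23.9, 22.7 and 51.8 in control mice and at 11.4, 6.22 and 19.2 in Ntsr2 AKO mice (unadjusted p = 0.0708), and 1 of 7 is near the 15.0% of all tested genes without overlap. The 4 tested neutrophil markers also had negative log2 fold changes. Their unadjusted p in limma was 0.0512 for S100a8, 0.0585 for S100a9, 0.115 for Csf3r and 0.299 for Mmp8. The part of neutrophils in the Retnlg values was not tested.

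A wider list of factors secreted by adipose tissue held genes that were lower in Ntsr2 AKO mice at the unadjusted threshold. Of 51 considered here, 50 were found and 46 tested, and 5 were lower and 0 higher at that threshold, beside 5.27% and 3.08% of all tested genes. The count stayed at 0 for the adjusted threshold in limma and edgeR, and it was 1 in DESeq2. The median log2 fold change of the list was -0.09, and with scaling by the total of recovered reads it was 0.00, with 3 genes lower and 1 higher, while the median over all genes moved from -0.01 to 0.09. The groups did not overlap for 5 of the 46 genes, each with the Ntsr2 AKO mice below, beside 8.16% of all tested genes. With the Ntsr2 AKO mice above there were 0, beside 6.82%, and the share in either direction was 15.0% of all tested genes. In both directions together, 10.9% of the list passed the unadjusted threshold, near the 8.35% of all tested genes.

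**Figure D5:**
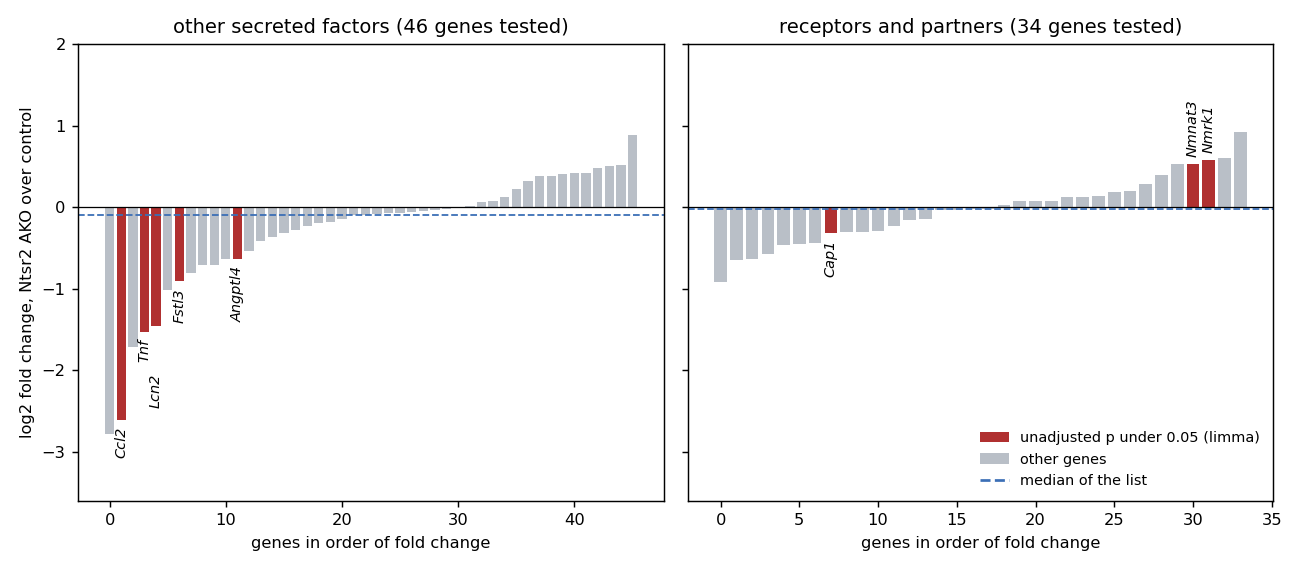
Log2 fold change (Ntsr2 AKO over control) of each tested gene in the lists of other secreted factors and of receptors and partners, in order of size, with genes at an unadjusted p under 0.05 in red and the list median as a dashed line. The red genes on the left panel all lie below 0, from Ccl2 at -2.61 to Angptl4 at -0.64.

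Ccl2, a chemokine that attracts monocytes, was at 1110, 1135 and 942 in control mice and at 196, 123 and 211 in Ntsr2 AKO mice. The highest Ntsr2 AKO mouse was far below the lowest control (log2 fold change -2.61 ± 0.24 (SE), limma adjusted p = 0.0643, edgeR adjusted p = 0.108, DESeq2 adjusted p = 3.89e-19). Over the 18 alternatives its log2 fold change ranged from -2.76 to -2.38 and passed the adjusted threshold in 1 of them, DESeq2. Macrophage markers, summed over 5 genes, ranged from 21458 to 69889 in control and from 22572 to 56834 in Ntsr2 AKO mice. The groups overlapped for this sum, of which Lyz2 was the largest part. All 5 markers had a negative log2 fold change (median -0.18, with 0 at an unadjusted p of 0.05 in limma). Their part in the Ccl2 values was not tested.

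Tnf, an inflammatory cytokine, had few counts, at 70.0, 58.8 and 61.4 in control mice and at 14.5, 16.6 and 39.5 in Ntsr2 AKO mice (-1.53 ± 0.49, limma unadjusted p = 0.0177, adjusted p = 0.546).

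Angptl4, an inhibitor of lipoprotein lipase, was at 56625, 45018 and 44740 in control mice and at 39904, 30919 and 24355 in Ntsr2 AKO mice. It was lower in all Ntsr2 AKO mice, by less than the cytokines (-0.64 ± 0.22, limma unadjusted p = 0.0212, adjusted p = 0.557). Fstl3, which binds and blocks activins, was at 336, 171 and 272 in control mice and at 165, 131 and 108 in Ntsr2 AKO mice (-0.91 ± 0.32, limma unadjusted p = 0.0263, adjusted p = 0.565). Lcn2, a lipocalin that binds bacterial siderophores, was at 66.3, 58.8 and 173 in control mice and at 29.9, 20.7 and 48.6 in Ntsr2 AKO mice (-1.46 ± 0.55, limma unadjusted p = 0.0338, adjusted p = 0.565). Neutrophils also express Lcn2, and the 4 tested neutrophil markers had negative log2 fold changes (median -1.58, with 0 at an unadjusted p of 0.05 in limma). Their sum over 5 genes ranged from 398 to 860 in control and from 125 to 511 in Ntsr2 AKO mice, and their part in the Lcn2 values was not tested.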

How the data were processed

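WATs of 3 control and 3 Ntsr2 AKO mice were analysed by RNA-seq. The authors trimmed reads with Trimmomatic, aligned them with Hisat2, quantified genes with StringTie and compared the groups with DESeq2. The submitters' processing notes name HISAT2, StringTie and the build mm10. The authors deposited normalized counts (a signal on a linear scale), in which the reads of a gene are scaled by 1 factor in each mouse. Division of each column by its smallest value gave whole numbers for 100% of values within a tolerance of 0.01, and these were used as recovered reads (54085088 to 66098226 per mouse). StringTie works from coverage, and the totals are therefore approximate. At this depth the number of mice, rather than counting error, limits the precision. The 6 pairs of mice within a group differed by more than sampling noise.

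On the scale of log2(normalized count + 1), the 16157 genes whose mean was at least 10 were tested with limma 3.58.1 (lmFit, eBayes with a trend, two-sided) in R 4.3.3 and Benjamini-Hochberg adjustment over all of these genes at a threshold of 0.05. A fold change on this scale understates the change of low genes. The 6 samples are called mice here, but the labels do not state that they are separate animals, and p-values measure only the spread between them, which may be technical. edgeR 4.0.16 (quasi-likelihood, TMM) and DESeq2 1.42.0 on recovered reads, pseudocounts of 0.1 and 5, a minimum mean of 50 or none, quantile normalization, scaling by total reads or by adipocyte markers, eBayes without a trend, the replicate number as a block and the omission of each mouse were alternatives, and a skeletal muscle covariate was added after the data were seen. On counts simulated for this comparison over 16157 genes, 200 of them with a log2 change of 2, limma called 106 changed and 10 unchanged genes, edgeR 105 and 9, and DESeq2 146 and 67. The replicate numbers come from the labels, and 2 of the 3 same-numbered pairs deviated together (correlations of 0.45 and 0.41) while the other did not (-0.24), so the numbers were not treated as pairing the mice.

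The members and lists were chosen with earlier results of these data known. From the lists of other secreted factors, receptors and partners, and family relatives, up to 5 genes per direction were named, those with the smallest p among genes with an unadjusted p under 0.05 and no overlap between the groups. Some genes of the list of other secreted factors are not reported here and were taken out of its counts after their values were seen. Itln1 and Retnlb were not found in the table, and 8 list genes were found under an older symbol. Gene positions and exons are from GENCODE M21 (GRCm38), in which 19770 of the 21456 names were found, and promoter windows are from RefSeq (GRCm38.p6) for all 10 members.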

Additional observations from a re-analysis of the deposited data

How the results depend on the processing

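With 3 mice per group, a single mouse decided the direction of several members. When each mouse was left out in turn, the log2 fold change ranged from -1.08 to 0.67 for Lep, from -0.07 to 0.15 for Adipoq, from -0.15 to 0.26 for Cfd, from -0.08 to 0.16 for Nampt and from -0.69 to 0.11 for Metrnl, and the Lep to Adipoq difference from -1.22 to 0.72. The values that changed sign were 0.67 for Lep, 0.72 for the ratio, -0.05 for Adipoq, -0.15 for Cfd and -0.08 for Nampt without control 3, -0.07 for Adipoq without control 5, -0.04 for Adipoq and 0.11 for Metrnl without Ntsr2 AKO 4, and -0.05 for Cfd without Ntsr2 AKO 5. The sign of Retn, Rbp4, Apln, Nrg4 and Sfrp5 was kept in all 18 alternatives, and over the 180 fits of the 10 members 8 changed sign (values that round to 0 not counted) and 0 of the 179 with a p passed the adjusted threshold.

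The count of members at an unadjusted p of 0.05 was 1 with the skeletal muscle covariate and ranged from 0 to 1 when a mouse was left out. The count without overlap was 1 after quantile normalization and ranged from 0 to 2 when a mouse was left out. The share of all tested genes without overlap is given only for all 6 mice (15.0%). Groups separate more readily with fewer mice, so these counts cannot be set against that share. Without a mouse, other secreted factors at an unadjusted p of 0.05 ranged from 1 (without Ntsr2 AKO 4) to 8 (without control 4). There were 2 without control 3, against 5 with all mice, and 3 were left at a mean of at least 50. Over all tested genes the same counts were 647 without Ntsr2 AKO 4, 1393 without control 4 and 1361 without control 3. They were 1349 with all mice and 1258 at a mean of at least 50. Receptors and partners ranged from 1 (without control 5 or Ntsr2 AKO 4) to 6 (without Ntsr2 AKO 3). With adipocyte marker scaling 0 were left, where the log2 fold changes of Nmnat3, Nmrk1 and Cap1 were 0.51, 0.57 and -0.33. Over all tested genes the counts were 1041 without control 5, 1696 without Ntsr2 AKO 3 and 544 with adipocyte marker scaling. Over all genes the adjusted threshold was passed by 1 gene in limma, 0 in edgeR and 220 in DESeq2, and the split at an unadjusted p of 0.05 moved from 852 lower and 497 higher to 464 and 865 with scaling by total reads. The cause was not tested. The replicate number as a block left 0 members past the adjusted threshold and 0 past the unadjusted one, 6 other secreted factors and 3 partners. Over all genes 1303 were at an unadjusted p of 0.05 with this block, against 1349 without it. The Lep to Adipoq difference was -0.34 (exact sign flips, p = 0.75), in a test that with 3 pairs cannot reach a p of 0.05. Not every mouse correlated best with its own number. Among the members Apln rests on the fewest reads, although its SD from counting error (0.108) was below its SD between mice (0.71). Ntsr2, Tnf, Lcn2, Retnlg and Scn2b also rest on few reads.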
